A study of Mus musculus with 8 samples.

Results

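Transcripts of 7 genes whose proteins bring long-chain fatty acids into cells or carry them through the cytosol were described in the subventricular zone of 3xTg mice, a transgenic line used to model Alzheimer's disease, and of wild-type (WT) control mice. The genes were Fabp3, Fabp5, Fabp7, Dbi, Cd36, Slc27a1 and Slc27a4. They were chosen from a functional group with the 3xTg minus WT differences of these same samples already known. Their differences are therefore given as descriptions of these arrays, with standard errors and intervals but no p-value, and a count of probes past a threshold is printed only beside the same share of all probes. Probes annotated to 6 of the 7 genes were measured, 8 probes in all, among 32684 probes for 21363 named genes; Cd36, the scavenger receptor that takes up fatty acids at the cell surface, was not analysed here. The wall of the lateral ventricle was dissected from female mice aged 7 months, with 4 samples of each genotype. For both genotypes the background is given as C57BL/6J (B6) mothers crossed with 129S1/SvImJ (129S) fathers. Whether the 2 groups carried the same alleles of these strains was not tested. The 3xTg samples were labelled with Cy5 and the WT samples with Cy3. Samples of the 2 genotypes with the same replicate number lay on 1 array, which gave 4 arrays and no dye swap, so genotype and dye cannot be told apart. The labelling protocol names only Cy3, so Cy5 rests on the label field. The human APP and MAPT transgenes of the 3xTg line are expressed from a Thy1 cassette, which is active in neurons. Whether a sample was 1 animal or a pool is not stated in the labels, which call the replicates biological.

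Fatty acids dissolve poorly in water, so cells move them with dedicated proteins. CD36 and the SLC27 family, also called fatty acid transport proteins, help them across the plasma membrane or trap them as acyl-CoA. Inside the cell the FABP proteins bind free fatty acids and hand them to enzymes and nuclear receptors, and DBI, the acyl-CoA binding protein, carries the activated form. In the adult ventricular wall FABP7 and FABP5 are known from radial glia, neural stem cells and astrocytes. DBI is also secreted, and peptides cut from it act on GABA-A receptors, and it is abundant in neural stem cells and their progeny there.

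The bases upstream of Fabp7 are shown because its probe was among the 3 lowest in 3xTg here. They come from RefSeq (GRCm38.p6), read 5′ to 3′ on the strand of the gene, and are the 250 bases before the start. The capitals mark ATTGG, the reverse complement of the CCAAT box, and TGACCT, the reverse complement of the nuclear receptor element AGGTCA.
Fabp7, chr10:57784673-57784922, plus strand: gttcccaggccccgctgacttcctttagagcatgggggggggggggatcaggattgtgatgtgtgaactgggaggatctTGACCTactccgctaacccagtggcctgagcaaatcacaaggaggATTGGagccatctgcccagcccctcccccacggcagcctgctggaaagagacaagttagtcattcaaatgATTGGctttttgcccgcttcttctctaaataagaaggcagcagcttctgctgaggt
The matches in the Fabp7 window began 56 and 126 bases before the start for the CCAAT box and 171 bases before it for the receptor element. On either strand CCAAT was found in 33.8% and AGGTCA in 14.0% of 32851 mouse windows of this length, so both are common. The other motifs searched were the GC box GGGCGG, the TATA box TATAAA, the E-box CACGTG, the sterol regulatory element TCACNCCAC and the octamer ATGCAAAT, found in 32.7%, 12.4%, 6.02%, 1.05% and 1.6% of windows, and none of them was found in this one. The GC content of the window was 54.8%, against a median of 52.4% over all windows. A match is only a description of the letters.

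The values are log2 intensities normalized by the authors, and sample medians lay between 10.12 and 10.15. Whether a probe was above background was not assessed, and the number of arrays, 4, limits the precision. In bulk tissue, fewer cells of a type and less RNA per cell cannot be told apart. Of the markers of the labelled tissue, Dcx of neuroblasts was at 12.22 ± 0.32 in the 3xTg samples (SD, n = 4). Foxj1 of ependymal cells was at 11.08 ± 0.69 in them (SD, n = 4). Both means were above the median of every sample, but Foxj1 was only at 10.15 in 3xTg replicate 1. These markers are examples, and others of the same lists had 3xTg means below the sample medians, among them Top2a at 8.45 and Pifo at 9.21. The arrays of replicates 1 and 2 stood apart in 1 respect that touches results below: the median difference of 8 markers of striatal projection neurons, the neurons of the adjoining striatum, was -2.38 and -1.99 there and 0.31 and -0.36 on the arrays of replicates 3 and 4. The main values below are therefore given on all 4 arrays and on arrays 3 and 4 alone.

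Fabp5 and 1 of the 2 Dbi probes were lower in 3xTg on every array, and Fabp7 was lower on 3 of 4 arrays. The other Dbi probe and the transporters lay close to 0. The Fabp3 probes had means of 0.07 and -0.15, but their differences on single arrays ran from -1.01 to 0.80. Of the 8 probes, 4 had a mean difference below 0 and 4 above, with a median of -0.05 log2 units against 0.01 over all probes. The 3xTg and WT samples did not overlap for 2 of the 8, both lower in 3xTg; over all probes this was so for 2.51%. A difference of the same sign on all 4 arrays was seen for 3 of the 8, among them Slc27a4 on the higher side, and for 25.3% of all probes. In limma, adjusted over all probes, 2 of the 8 passed the threshold of 0.05, against 1.22% of all probes. Leaving out each array in turn gave counts from 0 to 2. Nothing is read from these counts, because the genes were chosen with this contrast known.

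**Figure D1:**
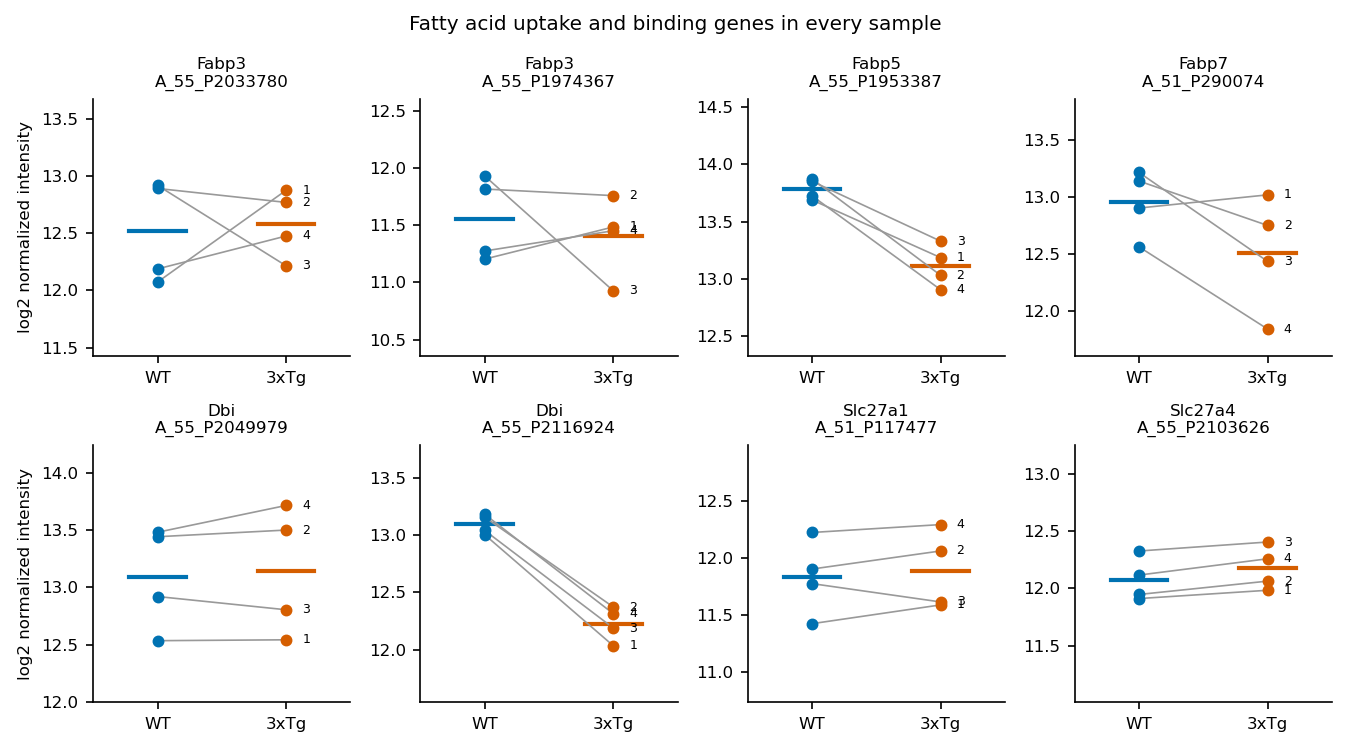
Log2 normalized intensity (y axis) of each of the 8 probes in the 4 WT (blue) and 4 3xTg (orange) samples. Grey lines join the 2 samples of an array, numbers give the replicate, bars are group means, and each panel has its own y axis of the same height in log2 units. The groups are separate for Fabp5 and for Dbi probe A_55_P2116924 and overlap in the other 6 panels.

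Fabp5 encodes the epidermal fatty acid binding protein, which delivers fatty acids and retinoic acid to nuclear receptors of the PPAR family. Its probe, A_55_P1953387, read log2 levels of 13.18, 13.03, 13.33 and 12.90 in 3xTg replicates 1 to 4. In WT it read 13.69, 13.87, 13.85 and 13.73. Every 3xTg sample lay below every WT sample, and the WT samples were the more tightly grouped, with a mean of 13.11 ± 0.18 for 3xTg against 13.79 ± 0.09 for WT (SD, n = 4 per genotype). The difference was -0.67 ± 0.11 (SE) with a 95% interval of -0.92 to -0.43, so that the WT level was 1.60-fold the 3xTg level. Within the 4 arrays the differences were -0.51, -0.84, -0.52 and -0.82. They fell into a smaller pair, replicates 1 and 3, and a larger pair, replicates 2 and 4. On arrays 3 and 4 alone the difference was -0.67. Among all probes of the array, 1.21% had a lower difference. With each array left out in turn the difference ran from -0.73 to -0.62.

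Fabp7, the brain fatty acid binding protein and a common marker of radial glia, binds the long-chain omega-3 fatty acids of brain membranes. Its probe, A_51_P290074, read 13.02, 12.75, 12.44 and 11.85 in 3xTg and 12.91, 13.14, 13.22 and 12.57 in WT on the log2 scale. The groups overlapped: the 3xTg sample of replicate 1 was above 2 of the WT samples, and the lowest sample of each group was replicate 4. The mean level was 12.51 ± 0.51 for 3xTg and 12.96 ± 0.29 for WT (SD, n = 4 per genotype). The difference was -0.44 ± 0.16 (SE), with a 95% interval of -0.81 to -0.08 and a WT level 1.36-fold that of 3xTg. Within the arrays it was 0.12, -0.39, -0.78 and -0.72. The replicate 1 array was therefore the only one on the higher side, and the mean was -0.63 without it. On arrays 3 and 4 alone it was -0.75.

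Fabp3, the heart-type fatty acid binding protein, is in the brain mainly a neuronal member of the family. Both of its probes varied more between arrays than between genotypes. Probe A_55_P2033780 read 12.88, 12.77, 12.22 and 12.48 in 3xTg and 12.07, 12.89, 12.92 and 12.19 in WT, a difference of 0.07 ± 0.22 (SE, 95% interval -0.44 to 0.58). The WT samples of replicates 1 and 4 were low and those of replicates 2 and 3 high, and 3xTg replicate 3 was the lowest of its group. Within the arrays the differences were 0.80, -0.12, -0.70 and 0.29, the widest spread of the 8 probes along with the second probe. Probe A_55_P1974367 read 11.49, 11.76, 10.93 and 11.45 in 3xTg and 11.20, 11.82, 11.93 and 11.27 in WT. Its difference was -0.15 ± 0.20 (SE, 95% interval -0.63 to 0.33), with 0.28, -0.06, -1.01 and 0.18 within the arrays. The probes thus had opposite mean signs but the same sign on each array, and across the 8 samples their deviations from the group means followed each other (Pearson r = 0.92, over 8 samples on 4 arrays, as a description). Averaged over its probes, Fabp3 differed by -0.042. RefSeq also lists a pseudogene, Fabp3-ps1, and whether either probe binds its transcripts is not known.

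**Figure D2:**
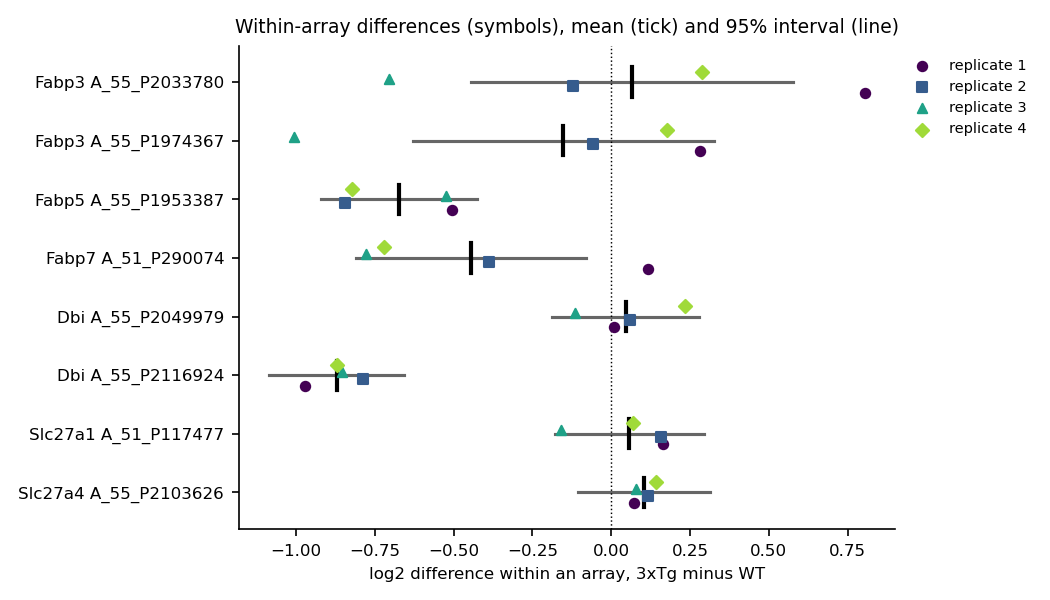
Difference between 3xTg and WT within each array, in log2 units (x axis), for the 8 probes. Symbols are the 4 arrays, the black tick is their mean and the grey line the 95% interval of the fit. All 4 symbols lie left of 0 for Fabp5 and Dbi A_55_P2116924, and right of 0 for Slc27a4 by 0.07 to 0.14.

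Dbi gave 2 different answers by probe. The brighter probe, A_55_P2049979, read 12.54, 13.50, 12.81 and 13.72 in 3xTg and 12.53, 13.44, 12.92 and 13.48 in WT. Its samples varied widely, but the 2 samples of an array nearly matched, with differences of 0.01, 0.06, -0.12 and 0.23 and a mean of 0.05 ± 0.10 (SE, 95% interval -0.19 to 0.28). The other probe, A_55_P2116924, read 12.03, 12.37, 12.19 and 12.31 in 3xTg and 13.01, 13.16, 13.04 and 13.18 in WT. All 4 3xTg samples lay well below all 4 WT samples, with means of 12.23 ± 0.15 and 13.10 ± 0.09 (SD, n = 4 per genotype). The difference was -0.87 ± 0.09 (SE), with a 95% interval of -1.09 to -0.66, a WT level 1.83-fold that of 3xTg and within-array values of -0.97, -0.79, -0.85 and -0.87. These were the most even within-array values of any of the lower probes here, and 0.554% of all probes had a lower difference. On arrays 3 and 4 alone it was -0.86. With each array left out in turn it ran from -0.90 to -0.84.

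The gap between the Dbi probes, the difference of A_55_P2116924 minus that of A_55_P2049979, was -0.92 log2 units and was -0.98, -0.85, -0.74 and -1.10 on the 4 arrays. Among 5144 genes with 2 probes, 52 (1.01%) had a gap at least as large in either direction, and the median size of a gap was 0.16. For Fabp3 the gap between probes was -0.22, and 35.4% of such genes had one as large. The annotation assigns both Dbi probes to the same transcript record, and which exons they lie on was not analysed here. Within the groups the 2 Dbi probes put the samples in a like order (r = 0.93 over 8 samples on 4 arrays, as a description). The disagreement therefore lay in the difference between the groups and not in which replicates were high. In that difference genotype and dye cannot be told apart. Averaged over both probes, Dbi differed by -0.41. No direction is therefore given for Dbi as a gene.

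The transporters showed small differences. Slc27a1 (FATP1), which takes up fatty acids in muscle and fat and is also found at the blood-brain barrier, read 11.59, 12.06, 11.61 and 12.29 in 3xTg and 11.42, 11.90, 11.77 and 12.22 in WT (A_51_P117477). Its difference was 0.06 ± 0.10 (SE, 95% interval -0.18 to 0.29), with 0.16, 0.16, -0.16 and 0.07 within the arrays. Both groups had their highest sample in replicate 4. Slc27a4 (FATP4), an acyl-CoA synthetase of the endoplasmic reticulum that supports fatty acid uptake, read 11.98, 12.06, 12.41 and 12.26 in 3xTg and 11.91, 11.95, 12.33 and 12.12 in WT (A_55_P2103626). It was slightly higher in 3xTg on each array, by 0.07, 0.12, 0.08 and 0.14, with a mean of 0.10 ± 0.09 (SE, 95% interval -0.11 to 0.31). The groups overlapped, since the spread between arrays exceeded the difference within them. The intervals of both leave room for differences of up to about 0.3 log2 units upward, so they do not show that the levels were equal.

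Across samples the genes did not vary as 1 block. The brighter Dbi probe followed Slc27a1 (r = 0.95) and ran opposite to Fabp7 (r = -0.54) and Fabp5 (r = -0.49). Fabp5 and Fabp7 had an r of 0.56, and Fabp7 and the brighter Fabp3 probe 0.65. These are correlations of deviations from group means over 8 samples that share 4 arrays, given as descriptions. The genes most like Fabp5 by this measure were Mcfd2 (r = 0.984), Hoxb5 (0.977) and 1700049E22Rik (0.974), and 136 of 21362 genes had an r over 0.9 with it. For Fabp7 they were Hspa1a (0.992), Rbx1 (0.990) and Syn1 (0.986), with 381 genes over 0.9. For the brighter Dbi probe they were Fgb (0.999), Gsta2 (0.998) and Dtx2 (0.998), with 1383 genes over 0.9. None of these 9 genes passed the threshold between genotypes (limma, adjusted over all probes).

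The relatives of these genes were compared in the same way, using the brightest probe of each gene. Of 26 related uptake and binding genes 24 were measured, and 0 of their 30 probes passed in limma adjusted over all probes; 14 genes were above 0 and 10 below, with a median of 0.06 log2 units against 0.01 over all genes. Fabp5 sits in a cluster of the family on chromosome 3 in the RefSeq table (GRCm38.p6), next to a transcribed pseudogene, Gm9833, and then Pmp2, Fabp9, Fabp4 and Fabp12. Their differences were 0.05 for Gm9833, 0.01 for Pmp2, the FABP of peripheral myelin, 0.08 for Fabp9, 0.19 for Fabp4, the FABP of fat cells, and 0.14 for Fabp12. On the other side of Fabp5, Pag1 differed by 0.23, and none of its 10 nearest measured neighbours passed. Over the neighbours of all 6 genes, 5 on each side, 2 of 60 passed (3.33%), against 253 of all 21363 genes. They were Tinagl1 near Fabp3 at -0.75 and Cercam near Slc27a4 at 0.57, and nothing is read from so small a count. A Fabp5-like gene, Fabp5l2, is also listed in RefSeq, and whether the Fabp5 probe binds its transcripts is not known.

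The lowest related gene at its brightest probe was Crabp1, the cytosolic retinoic acid binding protein, at -0.75 ± 0.30 (SE, limma adjusted p = 0.249). It was lower on 3 of 4 arrays, by -1.43 and -1.49 on those of replicates 1 and 2, where the striatal markers were lower too, and it was 0.42 and -0.50 on the others. The dimmer of 2 probes for Lpl, the lipoprotein lipase that frees fatty acids from lipoproteins, had a larger difference, -1.36 ± 0.42 (SE, adjusted p = 0.167), with -2.36, -2.57, 0.05 and -0.57 on the 4 arrays, while its brighter probe was at -0.17. The highest gene was Slc27a2 (FATP2), a transporter of liver and kidney, at 0.38 ± 0.10 (SE, adjusted p = 0.123), higher on 4 of 4 arrays. The other FATP genes, Slc27a3, Slc27a5 and Slc27a6, were at 0.09, 0.09 and 0.36, and 0 of them passed. The relatives of Dbi with an acyl-CoA binding domain, Acbd3 to Acbd7, lay between -0.15 and 0.04. Among 5 measured acyl-CoA synthetases, which activate the fatty acids that DBI then binds, 2 were above 0, 3 below and 0 of 7 probes passed, with a median of -0.06. Slc27a2, Fabp12, Lpl and the other relatives quoted only to place the described genes were chosen after their values were seen.

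**Figure D3:**
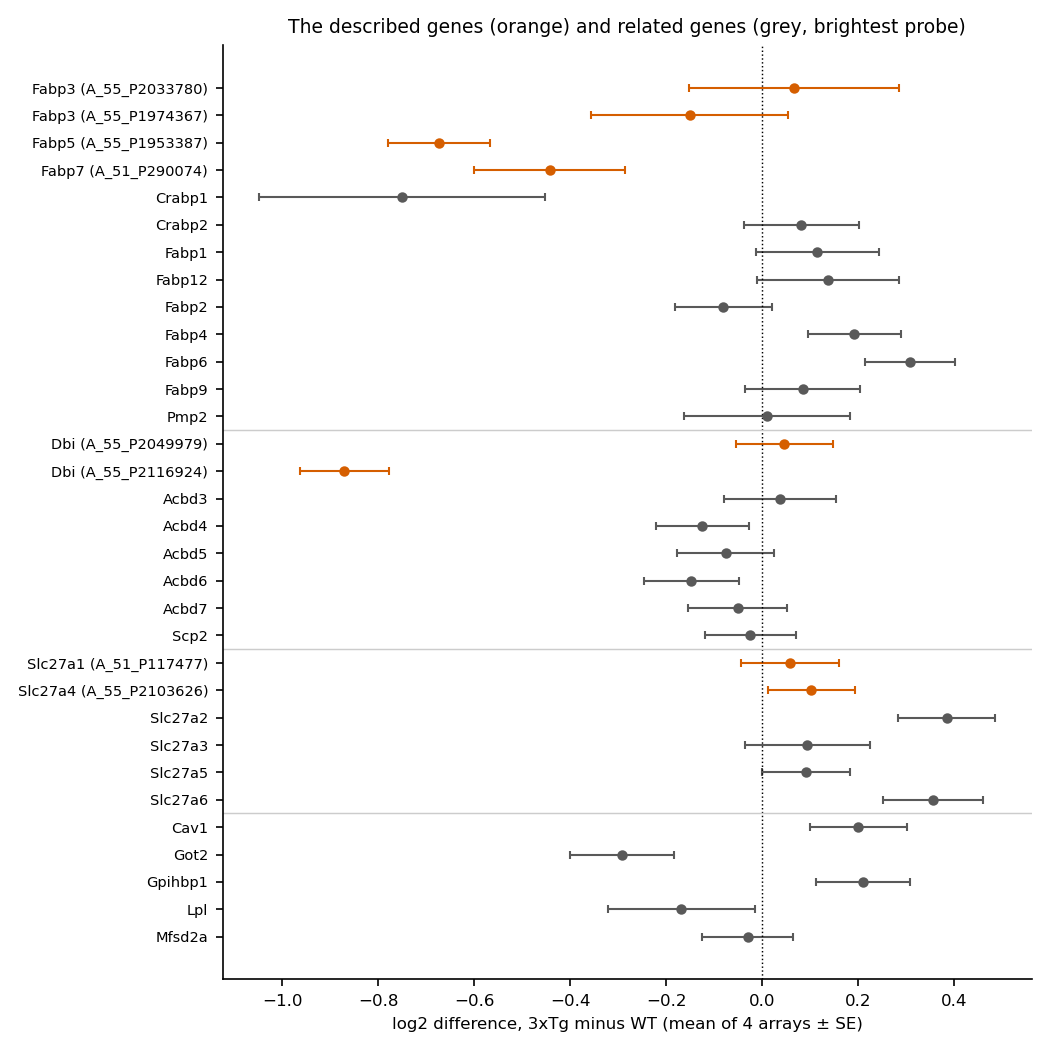
Difference between 3xTg and WT in log2 units (x axis, mean of 4 arrays, bars are SE) for the 8 described probes (orange) and 24 related genes (grey, brightest probe), in groups of FABP and retinoid binding genes, acyl-CoA binding genes, FATP genes, and other uptake genes. Dbi A_55_P2116924 at -0.87, Crabp1 at -0.75 and Fabp5 at -0.67 are the lowest points, and the other grey points lie within 0.4 of 0.

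FABP5 and FABP7 hand fatty acids to nuclear receptors, so the receptors and their classic targets were compared too. Of 14 such genes 11 were measured, and 0 of 16 probes passed; 6 genes were above 0 and 5 below, with a median of 0.00 log2 units. Pparg differed by 0.00 ± 0.10, Ppara by 0.03 ± 0.09 and Ppard, the receptor served by FABP5, by -0.26 ± 0.10 (SE). The last was lower on 4 of 4 arrays (limma adjusted p = 0.219). Acadl, a mitochondrial enzyme of fatty acid oxidation and a PPARA target, was higher on 4 of 4 arrays by 0.65 ± 0.13 (SE) and missed the threshold in limma (adjusted p = 0.0604). At their brightest probes the other targets were at 0.38 for Angptl4, 0.32 for Cpt1a, 0.01 for Pdk4 and -0.18 for Plin2. The retinoid X receptors Rxra and Rxrb were at -0.25 and -0.28. The dimmer probe of Rxrg, a retinoid X receptor, was at -0.96 and its brighter probe at -0.32, with -1.84, -1.69, -0.11 and -0.22 on the 4 arrays at the dimmer one.

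DBI binds the mitochondrial protein TSPO and the GABA-A receptor, and of 6 genes for these partners 4 were measured. Both Gabra2 probes, for the alpha 2 subunit of the receptor, were higher in 3xTg and passed. This made 2 of the list's 6 probes, both of 1 gene, against 1.22% of all probes. The list was chosen with earlier results of these data known, so nothing is read from this count. The values below are descriptions for the same reason. Probe A_55_P2027900 was at 12.08 ± 0.18 for 3xTg against 11.29 ± 0.20 for WT (SD, n = 4 per genotype), a rise of 0.79 ± 0.11 (SE, limma adjusted p = 0.027) seen on 4 of 4 arrays. Probe A_55_P2177351 rose by 0.97 ± 0.10 (SE, limma adjusted p = 0.00754), also on 4 of 4 arrays. Gabra3, Gabra5 and Tspo differed by 0.19, 0.10 and -0.19 at their brightest probes and did not pass. The number of probes of the related, synthetase, receptor and partner lists that passed, 2 in all, was 1 without replicate 1, and 0 without replicate 2, on arrays 3 and 4 alone and without the array in the fit.

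Because the dissected pieces can differ in the cells they hold, marker lists were set beside the values of the described genes. Of 13 genes of astrocytes and neural stem cells, the cells in which Fabp5 and Fabp7 are best known, 10 were above 0 and 3 below, with a median of 0.13 log2 units. The log2 of their summed level ran from 17.05 to 17.36 in 3xTg and from 17.02 to 17.07 in WT. Gfap differed by 0.31 and the glutamate transporter Slc1a3 by 0.43, both higher on 4 of 4 arrays. These were the 2 genes of smallest p in the list. Dimmer probes of Slc1a2 (A_55_P2392625, -0.38) and Prom1 (A_52_P402786, -0.42) were lower on 4 of 4 arrays. The median of the 13 genes per array was 0.25, 0.31, -0.04 and 0.17, highest on arrays 1 and 2, where Fabp7 differed by 0.12 and -0.39. Of 11 measured markers of transit-amplifying cells and neuroblasts 5 were above 0 and 6 below, with a median of -0.016 and a summed level of 16.33 to 16.53 in 3xTg and 16.02 to 16.34 in WT. Sp9 was at 0.79 and Sox11 at -0.54, each with 1 sign on 4 of 4 arrays. No marker was listed at 0, and 0 marker probes of any list passed (limma, adjusted over all probes).

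Of the 8 ependymal markers 6 were below 0, with a median per array of -0.54, -0.18, 0.73 and -0.41 and a summed level of 14.20 to 15.45 in 3xTg and 14.73 to 15.56 in WT. This order is not that of Fabp5, Fabp7 or Dbi; the array of replicate 3, the only one with higher ependymal markers, was the one on which both Fabp3 probes were lowest. All 9 measured oligodendrocyte markers were above 0, with a median of 0.28, among them Cldn11 at 0.77 and Ugt8a at 0.69, and a summed level of 16.35 to 17.26 in 3xTg and 16.20 to 16.93 in WT. Per array they were at -0.23, 0.58, 0.71 and 0.40, lower only on the array of replicate 1, the only one on which Fabp7 was higher. All 8 striatal markers were below 0, with Tac1 at -0.92 and Gpr6 at -0.82 and a summed level of 15.53 to 17.56 in 3xTg and 17.17 to 17.91 in WT. On arrays 3 and 4, where the striatal markers differed least, Fabp5 was at -0.67 and Dbi A_55_P2116924 at -0.86. The part of any of these lists in the values of the described genes was not tested.

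Medians of the other lists were 0.04 for oligodendrocyte precursors (Cspg4 -0.28, Gpr17 0.16), -0.04 for microglia (Tmem119 -0.46, Cx3cr1 -0.35) and -0.03 for endothelial cells (Cldn5 -0.33, Ly6c1 -0.34). They were -0.08 for pericytes (Pdgfrb -0.11, Vtn -0.13), 0.08 for choroid plexus epithelium (Ttr 0.93, Kl -0.41) and 0.11 for neurons in general (Nefm 0.79, Rbfox3 -0.40). The last lies between Snap25 and Syt1, whose probes were at or near the highest value of the scale. The brightest Itgam probe of the microglia list was there too. The brightest Pde10a probe of the striatal list equalled it in WT replicates 1, 2 and 4. The brightest Mbp probe of the oligodendrocyte list equalled it in 3xTg replicate 4. Differences at all of these probes may be compressed. None of the 8 described probes reached the highest value in any sample. For endothelial cells, the site of Slc27a1 and Slc27a4 at the blood-brain barrier, 5 of 10 genes were above 0 and the summed level was 15.03 to 15.31 in 3xTg and 15.16 to 15.30 in WT.

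**Figure D4:**
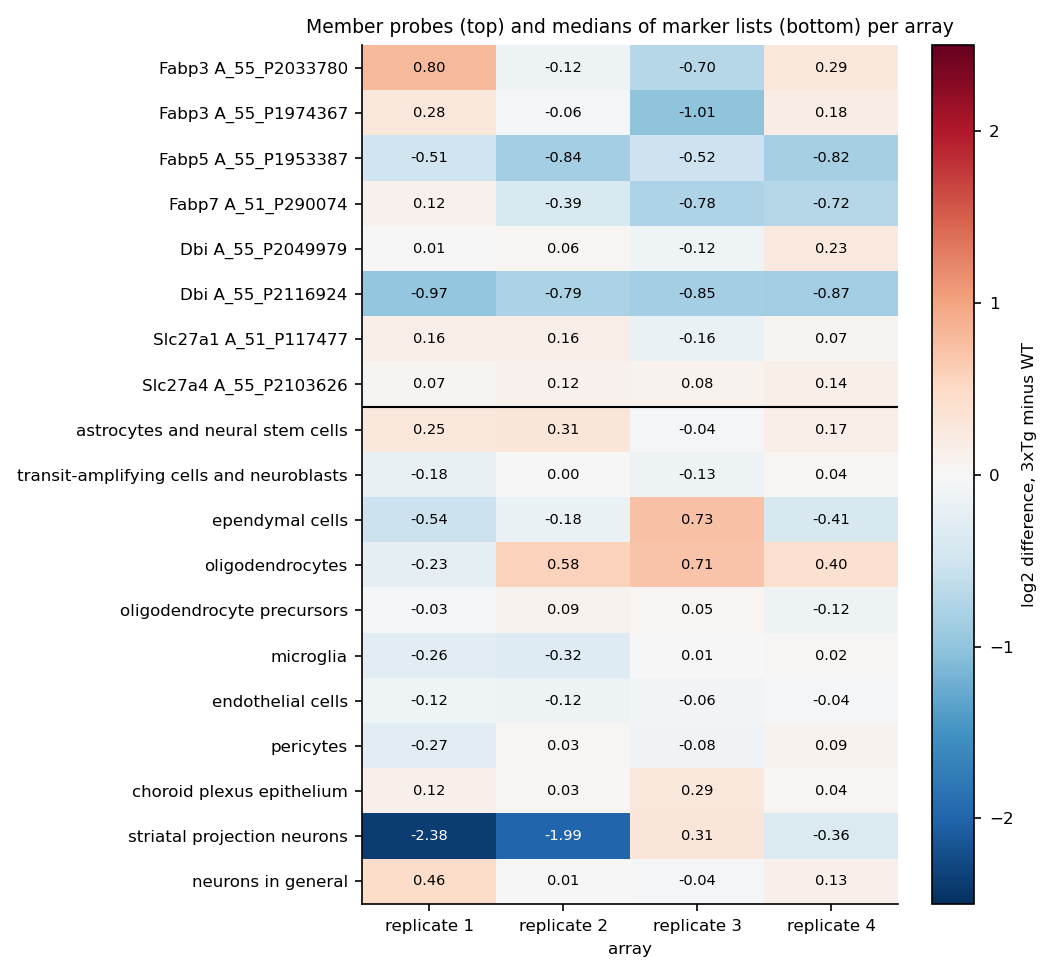
Difference between 3xTg and WT in log2 units (colour and number, red higher and blue lower in 3xTg) on each array (columns) for the 8 probes (above the line) and for the median of each marker list (below it). Fabp5 and Dbi A_55_P2116924 are blue on all 4 arrays, while the striatal list is strongly blue on the arrays of replicates 1 and 2 alone.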

How the data were processed

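RNA from the subventricular zone of 4 3xTg and 4 WT samples was measured on 4 two-colour arrays. The deposited values are log2 intensities, 1 per probe and sample, normalized by the authors; limma was used per the submitters' processing notes, with no version. How background was corrected, how values were normalized and whether probes were filtered is not given in the sources used here. Of the probes, 29769 had 1 symbol in the platform annotation, 2915 had none and 0 had several. These were analysed in R 4.3.3 with limma 3.58.1 (statmod 1.5.0 for the random block). The model held array and genotype as fixed effects, moderation was the default, p-values were two-sided and adjusted over the 32684 probes by the Benjamini-Hochberg method, and the threshold was 0.05. The fit was tested on simulated data. Samples of 1 array deviated together (r = 0.78, 0.78, 0.54 and 0.82, against at most 0.18 between arrays), per the shared array file in the labels. The members and the gene lists were chosen with earlier results of these data known. Named are all probes of the members, listed relatives, receptors and partners that passed or differed by at least 0.5 at their brightest probe, up to 2 markers of smallest p per list, and the 3 genes most correlated with Fabp5, Fabp7 and Dbi. Neighbouring genes and arrays 3 and 4 alone were examined after seeing the data, as were other genes given as examples. Alternatives were other blocks, scalings (medians centred, quantile, loess with span 0.3), moderation, leaving out the dimmest 25% of probes or each array, and averaging probes.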

Additional observations from a re-analysis of the deposited data

How the results depend on the processing

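Of the 8 probes 2 passed, also after centring, quantile or loess scaling; without the replicate block, that is without pairing the samples of an array, 1 passed, and with each array left out in turn 0 to 2 did. On arrays 3 and 4 only, chosen after seeing the data, 0 passed. Nothing is read from these counts, because the genes were chosen with this contrast known. The counts over all probes in the same settings are given below. Of the related-gene probes 2 passed, against 0 with no replicate block, 4 with the array as a random replicate block, 0 to 3 with each array left out and 0 on arrays 3 and 4 only. Leaving out arrays leaves fewer samples, and a fit without the block adds the spread between arrays to the error. Of all 32684 probes 203 were higher and 197 lower. These counts were 272 and 257 after centring, 132 and 115 after quantile normalisation and 240 and 252 after loess. They were 47 and 31 without the replicate block, 551 and 758 with the random block and 405 and 500 with trend and robust moderation. With 1 array left out they were 74 and 57 without replicate 1 and 12 and 19 without replicate 2. They were 185 and 229 without replicate 3 and 151 and 127 without replicate 4. On arrays 3 and 4 only they were 101 and 60.

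Fabp5 (-0.73 to -0.62), Dbi A_55_P2116924 (-0.90 to -0.84), Fabp7 (-0.63 to -0.33) and Slc27a4 (0.09 to 0.11) kept their sign with each array left out. Signs turned for small differences: Fabp3 A_55_P2033780 was -0.18 without replicate 1 and -0.0075 without replicate 4 (range -0.18 to 0.32) and -0.21 on arrays 3 and 4. Fabp3 A_55_P1974367 was 0.13 without replicate 3 (range -0.30 to 0.13), Dbi A_55_P2049979 was -0.017 without replicate 4 (range -0.017 to 0.10), and Slc27a1 was -0.046 on arrays 3 and 4. Averaged over probes, Fabp3 was at -0.042 and Dbi at -0.41, each against a positive difference at its brighter probe. The cause of these turns was not tested. No scaling moved the median of all probes by over 0.1.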
